A study of Mus musculus with 6 samples.

Results

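The myogenic transcription factors are the DNA-binding proteins that set and run the skeletal muscle program, and 9 of their genes were examined among the 22375 rows of the deposited table. They were chosen by gene symbol: the 4 myogenic regulatory factors Myod1, Myf5, Myog and Myf6, the paired box factors Pax7 and Pax3, and the myocyte enhancer factors Mef2a, Mef2c and Mef2d. Every symbol matched 1 row, and the rule itself used no measured value. RNA-seq was performed on C2C12 cells, an established line of mouse myoblasts that can fuse into myotubes. The CON group held 3 libraries of unstretched cells, and the 4H group held 3 libraries of cells stretched cyclically at 15% elongation for 4 h. Both groups were cells of the same line, with no other agent named. The labels number the libraries as replicate biosamples without saying whether they came from separate cultures, so p-values measure only the spread between these samples, which may be technical.

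The myogenic regulatory factors are basic helix-loop-helix proteins that pair with E proteins and bind the short DNA element called the E-box. MYF5 and MYOD act at the step of commitment to the muscle lineage, MYOG drives terminal differentiation, and MYF6, also called MRF4, acts in commitment and in mature fibres. PAX3 and PAX7 mark muscle progenitors and satellite cells, while the MEF2 proteins do not specify muscle by themselves but bind muscle gene promoters together with the myogenic regulatory factors. ID proteins lack a DNA-binding region and hold E proteins in inactive pairs.

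Of the 9 genes, Myod1 rose 3.55-fold in the 4H group, Myf5 fell to 0.621 of its level in the CON group and Mef2a rose 1.26-fold. The difference for Mef2d did not pass the test, and Mef2c passed the filter on low values but not the test. Pax7, Myog, Pax3 and Myf6 lay below the filter. In unstretched cells Myf5 stood above Myod1, and in stretched cells Myod1 stood above Myf5.

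Values are FPKM, fragments per kilobase of transcript scaled to the number of mapped fragments, which corrects for transcript length and library size. A gene was tested where its FPKM averaged 0.5 or more across all 6 libraries. The test was limma on log2(FPKM + 0.5), with Benjamini-Hochberg adjustment over the 11593 genes that met this filter. Log2 fold changes are 4H minus CON on that scale, which understates the change of low genes. A gene passed the test at an adjusted p of at most 0.05, and a second threshold asked in addition for a log2 fold change of 1 or more in either direction. The summed FPKM ran from 395790 to 397260 in the CON libraries and from 385146 to 387516 in the 4H libraries. The relative depth read from low values differed by at most 1.55% between any pair of libraries. Each of these readings rested on 12 to 23 genes, and the search allowed only small gaps, so a large gap could not have been found. The number of reads per library is not given in the sources used here. In bulk RNA, fewer cells of a type and less RNA per cell cannot be told apart.

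Of all genes tested, 46.7% passed at the adjusted p, 22.6% higher and 24.1% lower in the 4H group, and 3.88% passed both thresholds. The CON and 4H values did not overlap in 56.7% of genes tested. Against these shares stood 2 members higher and 1 lower at the adjusted p, 1 member past both thresholds, and 4 tested members without overlap. Over all tested genes the log2 fold change had a median of -0.01.

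**Figure D1:**
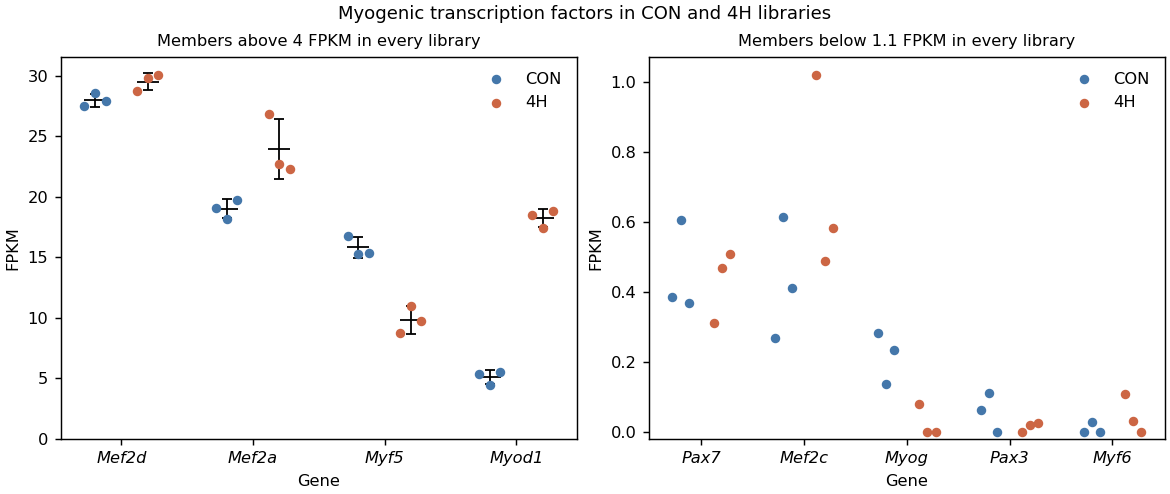
FPKM of each of the 9 genes in the 3 CON and 3 4H libraries, as points on linear axes; the left panel holds the 4 genes above 4 FPKM in every library, with a bar for the mean and whiskers for the SD, and the right panel the other 5. The 3 4H values of Myod1 (17.4 to 18.8) lie above its 3 CON values (4.48 to 5.55), and the 3 4H values of Myf5 (8.75 to 11) lie below its CON values (15.3 to 16.8).

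Myod1 (ENSMUSG00000009471), the gene of the commitment factor MYOD, lies at chr7:46376474-46379099 on the plus strand of GRCm38 in the GENCODE M21 annotation, with 1 annotated transcript. Its level was 5.37, 4.48 and 5.55 FPKM in CON replicates 1 to 3 and 18.5, 17.4 and 18.8 FPKM in 4H replicates 1 to 3. All 3 stretched libraries were far above all 3 unstretched ones, and within each group the values lay close together. The mean rose from 5.13 ± 0.573 to 18.2 ± 0.738 FPKM (SD, n = 3 each). The log2 fold change was 1.74 (SE 0.08, 95% confidence interval 1.55 to 1.93), with an adjusted p of 1.56e-06 in limma. Among all genes tested, 66 had a larger positive log2 fold change. Its CON mean was higher than that of 48.8% of the 16576 genes listed above 0 in any library, and its 4H mean was higher than that of 74.3% of them. Leaving out any 1 library gave a log2 fold change between 1.65 and 1.79.

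Myf5 (ENSMUSG00000000435), the other commitment factor, moved the opposite way. It lies at chr10:107482908-107486134 on the minus strand, 6718 bases from Myf6, which is on the same strand. Its promoter is shown because, of the matched promoters, only it and that of Mef2a hold the letters CTANNNNTAG, with N for any base. This is a loose pattern for the MEF2 element that leaves the middle bases open, so a match need not be a MEF2 site. The 300 bases run from 250 before to 50 after the start of the transcript at chr10:107486085-107486384, minus strand, in RefSeq GRCm38.p6. Capitals mark the match, which begins 182 bases before the start.

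Myf5: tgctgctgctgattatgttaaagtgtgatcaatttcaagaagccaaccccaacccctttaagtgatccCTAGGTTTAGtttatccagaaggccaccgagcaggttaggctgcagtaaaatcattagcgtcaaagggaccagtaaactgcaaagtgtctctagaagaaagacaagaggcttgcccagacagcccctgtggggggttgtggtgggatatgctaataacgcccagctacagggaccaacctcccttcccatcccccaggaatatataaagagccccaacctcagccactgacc

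The level of Myf5 was 16.8, 15.3 and 15.3 FPKM in CON replicates 1 to 3, against 8.75, 11 and 9.71 FPKM in 4H replicates 1 to 3. Every stretched library was below every unstretched one, and the spread was wider among the stretched libraries. The mean went from 15.8 ± 0.851 to 9.82 ± 1.13 FPKM (SD, n = 3 each). The log2 fold change was -0.67 (SE 0.08, 95% confidence interval -0.86 to -0.47), with an adjusted p of 0.000347 in limma, so that Myf5 passed the adjusted p but not the fold threshold. Among all genes tested, 371 had a more negative log2 fold change. Its CON mean was above that of 70.8% of the genes listed above 0, and its 4H mean above that of 60.7%.

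Because FPKM is corrected for length, the levels of the commitment factors can be set against each other within a library. The ratio of Myod1 to Myf5 was 0.320, 0.292 and 0.362 in the CON libraries and 2.11, 1.58 and 1.94 in the 4H libraries. The ratio was below 1 in every unstretched library and above 1 in every stretched one. Its mean went from 0.325 ± 0.0348 to 1.88 ± 0.270 (SD, n = 3 each), a 5.78-fold difference. Myod1 made up 24.5% ± 1.98 of the summed FPKM of both genes in the CON group and 65.0% ± 3.4 in the 4H group. The sum itself was 22.2, 19.8 and 20.9 FPKM in the CON libraries and 27.2, 28.4 and 28.5 FPKM in the 4H libraries, a ratio of means of 1.34. Here and for every ratio or sum below, a two-sided exact permutation test over the 6 libraries gave p = 0.1 where the groups did not overlap, which is the smallest p that 3 against 3 allows, so no ratio or sum could reach 0.05.

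**Figure D2:**
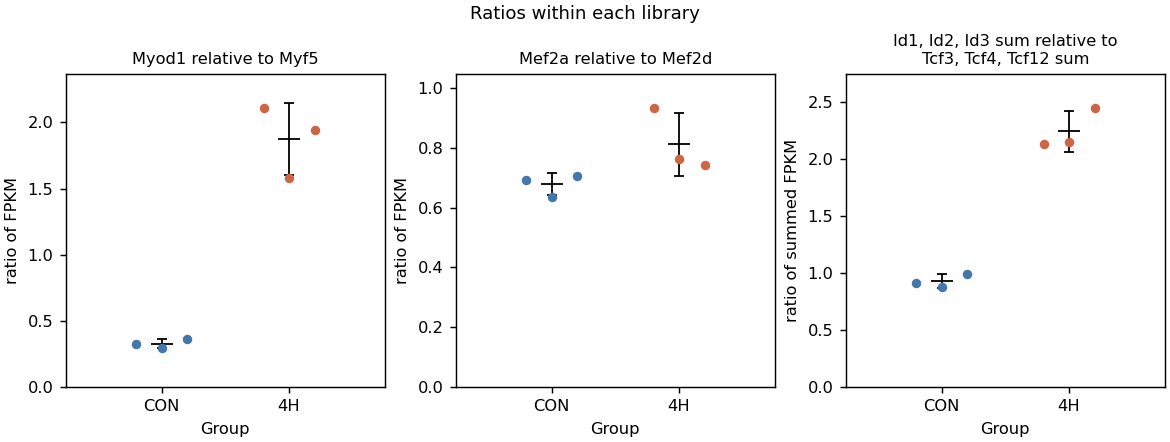
Ratios of FPKM per library in the CON and 4H groups, as points with a bar for the mean and whiskers for the SD, each panel on its own linear axis starting at 0. Myod1 over Myf5 lies at 0.292 to 0.362 in the CON libraries and at 1.58 to 2.11 in the 4H libraries, and the summed ID genes over the summed E protein genes at 0.872 to 0.995 and at 2.13 to 2.45.

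Myog (ENSMUSG00000026459), the gene of the terminal differentiation factor myogenin, was barely detected. It lies at chr1:134289989-134292548 on the plus strand. Its promoter is shown because it holds 2 E-boxes, written CANNTG, the element to which the other members of the family bind; they are marked in capitals and begin 138 and 12 bases before the start of the transcript. The window is chr1:134289754-134290053, plus strand, in RefSeq GRCm38.p6.

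Myog: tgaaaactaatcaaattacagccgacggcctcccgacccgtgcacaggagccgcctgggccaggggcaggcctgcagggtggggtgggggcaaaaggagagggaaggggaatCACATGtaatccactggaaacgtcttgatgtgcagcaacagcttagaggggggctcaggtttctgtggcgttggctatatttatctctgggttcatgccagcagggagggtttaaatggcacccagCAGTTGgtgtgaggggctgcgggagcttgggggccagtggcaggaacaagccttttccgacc

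The level of Myog was 0.281, 0.136 and 0.235 FPKM in CON replicates 1 to 3 and 0.0794 FPKM in 4H replicate 1, and it was listed at 0 in 4H replicates 2 and 3. All 3 unstretched libraries were above all 3 stretched ones, at levels under the filter. It was therefore not tested, and the exact permutation test gave p = 0.1, the smallest possible. With no filter on low values, limma gave a log2 fold change of -0.44 (SE 0.10) and an adjusted p of 0.0134 over all genes above 0, so the call rests on the choice of filter.

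Myf6 (ENSMUSG00000035923), the neighbour of Myf5 at chr10:107492853-107494737 on the minus strand, was listed at 0 in CON replicates 1 and 3 and at 0.0281 FPKM in CON replicate 2. In the 4H group it was at 0.108 FPKM in replicate 1, at 0.0308 FPKM in replicate 2 and listed at 0 in replicate 3. The groups overlapped, and the exact permutation test gave p = 0.4. With no filter, its log2 fold change was 0.10 (95% confidence interval -0.09 to 0.28), with an adjusted p of 0.392 in limma.

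Pax7 (ENSMUSG00000028736), the satellite cell factor at chr4:139737062-139833528 on the minus strand, was low in all 6 libraries. Its level was 0.386, 0.605 and 0.366 FPKM in CON replicates 1 to 3 and 0.310, 0.468 and 0.508 FPKM in 4H replicates 1 to 3. The ranges of the groups overlapped in part, with the lowest value in a stretched library and the highest in an unstretched one. Means were 0.452 ± 0.132 and 0.429 ± 0.104 FPKM (SD, n = 3 each), and the exact permutation test gave p = 0.9. With no filter, the log2 fold change was -0.03 with a 95% confidence interval of -0.34 to 0.28.

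Pax3 (ENSMUSG00000004872), the embryonic counterpart of Pax7 at chr1:78101267-78197134 on the minus strand, was at 0.0608 and 0.112 FPKM in CON replicates 1 and 2 and listed at 0 in CON replicate 3. It was listed at 0 in 4H replicate 1 and at 0.0192 and 0.0241 FPKM in 4H replicates 2 and 3. The groups overlapped, with an exact permutation p of 0.4. With no filter, the log2 fold change was -0.11 (95% confidence interval -0.29 to 0.07), with an adjusted p of 0.317 in limma.

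Mef2a and Mef2d were the most abundant of the 9 genes in every library. Mef2a (ENSMUSG00000030557) lies at chr7:67231163-67372858 on the minus strand, with 12 annotated transcripts. Its promoter is shown as the other one with a match to the loose MEF2 pattern. The match is marked in capitals and begins 2 bases before the start of the transcript. The window is chr7:67372809-67373108, minus strand, in RefSeq GRCm38.p6.

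Mef2a: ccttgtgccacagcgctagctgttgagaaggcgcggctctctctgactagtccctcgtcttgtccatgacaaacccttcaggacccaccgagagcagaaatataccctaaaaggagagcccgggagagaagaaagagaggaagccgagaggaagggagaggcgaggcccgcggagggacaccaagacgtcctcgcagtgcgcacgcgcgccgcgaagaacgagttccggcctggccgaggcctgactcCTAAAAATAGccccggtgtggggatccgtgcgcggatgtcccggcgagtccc

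The level of Mef2a was 19.1, 18.2 and 19.8 FPKM in CON replicates 1 to 3 and 26.8, 22.7 and 22.3 FPKM in 4H replicates 1 to 3. All stretched libraries were above all unstretched ones, and 4H replicate 1 stood above the other stretched libraries. The mean rose from 19.0 ± 0.795 to 24.0 ± 2.49 FPKM (SD, n = 3 each). The log2 fold change was 0.32 (SE 0.07, 95% confidence interval 0.15 to 0.49), with an adjusted p of 0.00757 in limma. Without 1 library at a time it lay between 0.24 and 0.37. Exons of Mef2a overlap those of Lysmd4 on the opposite strand, which was at 1.60 to 2.11 FPKM in the 6 libraries. The libraries were prepared to keep the strand, but whether counting used it is not given in the sources used here.

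Mef2d (ENSMUSG00000001419), at chr3:88142372-88172086 on the plus strand, had the highest level of the 9 genes. It was at 27.5, 28.6 and 28.0 FPKM in CON replicates 1 to 3 and at 28.7, 29.8 and 30.1 FPKM in 4H replicates 1 to 3. The groups did not overlap, but the lowest stretched library was only just above the highest unstretched one. Means were 28.0 ± 0.540 and 29.5 ± 0.728 FPKM (SD, n = 3 each). The log2 fold change was 0.08 (SE 0.04, 95% confidence interval -0.01 to 0.16), with an adjusted p of 0.14 in limma. After each library was rescaled to a common sum, as in TPM, the log2 fold change was 0.11 with an adjusted p of 0.0428 in limma, while median-of-ratios scaling gave 0.08 (adjusted p = 0.143) and quantile normalization 0.09 (adjusted p = 0.113), so 1 of these 3 scalings changed the call. Exons of Mef2d overlap those of 1 gene on the opposite strand.

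Mef2c (ENSMUSG00000005583), at chr13:83504034-83667080 on the plus strand with 31 annotated transcripts, is the member best known from muscle and heart development. Its level was 0.269, 0.613 and 0.410 FPKM in CON replicates 1 to 3 and 1.02, 0.489 and 0.582 FPKM in 4H replicates 1 to 3. The groups overlapped, and 4H replicate 1 was the highest library by a wide margin. Means were 0.430 ± 0.173 and 0.697 ± 0.283 FPKM (SD, n = 3 each), so the gene passed the filter only through the 4H group. The log2 fold change was 0.35 (SE 0.21, 95% confidence interval -0.14 to 0.85), with an adjusted p of 0.21 in limma. Without 4H replicate 1 its mean was below the filter and it was not tested.

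The 3 MEF2 genes together held 46.8, 47.4 and 48.1 FPKM in the CON libraries and 56.6, 53.0 and 53.0 FPKM in the 4H libraries. The stretched libraries were all higher, with 4H replicate 1 highest. Mef2a relative to Mef2d was 0.694, 0.637 and 0.707 in the CON libraries and 0.934, 0.762 and 0.742 in the 4H libraries. Mef2c contributed 0.906% ± 0.363 of the summed level in the CON group and 1.27% ± 0.465 in the 4H group, with overlapping libraries and an exact permutation p of 0.4.

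**Figure D3:**
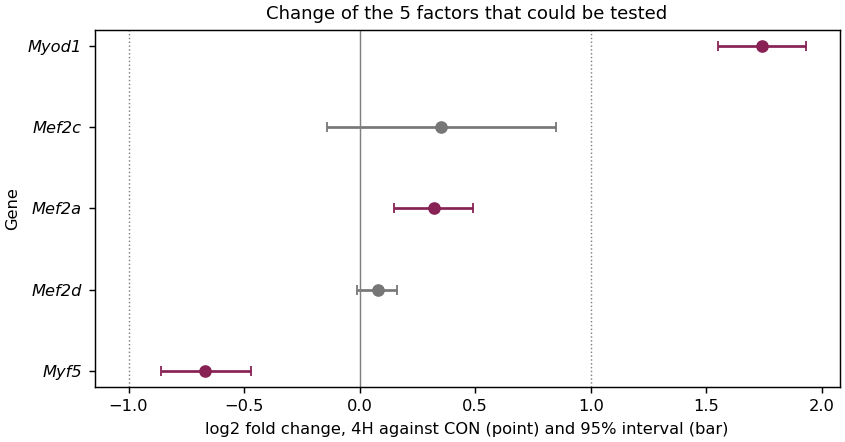
Log2 fold change, 4H minus CON on the log2(FPKM + 0.5) scale, of the 5 genes that passed the filter (points) with the 95% confidence interval from limma (bars), coloured where the adjusted p was at most 0.05, with dotted lines at the fold threshold. Myod1 lies at 1.74, Mef2a at 0.32 and Myf5 at -0.67, while the intervals of Mef2d and Mef2c cross 0.

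Ordered by mean level in the CON group, the genes ran Mef2d, Mef2a, Myf5, Myod1, Pax7, Mef2c, Myog, Pax3 and Myf6. The library ranges of neighbours in that order overlapped for Pax7 and Mef2c, for Mef2c and Myog, and for Pax3 and Myf6, and no other neighbours overlapped. In the 4H group the order was Mef2d, Mef2a, Myod1, Myf5, Mef2c, Pax7, Myf6, Myog and Pax3. There Mef2c overlapped Pax7, Myf6 overlapped Myog, and Myog overlapped Pax3. In both groups 4 members stood above 4 FPKM in every library, and the other 5 were at 1.02 FPKM or lower.

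Promoter windows of 300 bases were found in the RefSeq table for 6 of the 9 members, 8 windows in all, and none was matched for Myod1, Myf6 and Pax3. An E-box CANNTG was searched on both strands, and 72.3% of the 32851 windows of this length in the table hold at least 1. The loose MEF2 pattern CTANNNNTAG, searched on both strands, is held by 3.69% of them. Beside the Myog, Myf5 and Mef2a windows shown above, E-boxes were found in windows of Mef2c, and no match to either pattern in those of Pax7 and Mef2d. A match describes these letters only. Other forms of the MEF2 element were not searched, so a window without a match may still hold one.

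The genes whose log2(FPKM + 0.5) followed that of a member most closely over the 6 libraries were taken from 8494 genes averaging 5 FPKM or more. For Myod1 they were Csgalnact1 (Pearson r = 0.9997) and Tigit (r = 0.9996). For Myf5 they were Esf1 (r = 0.9985) and Dnaja2 (r = 0.9983), for Mef2a Lynx1 (r = 0.9951) and Ehd4 (r = 0.9911), and for Mef2d Cdkn2d (r = 0.9909) and Ubqln1 (r = 0.9877). For Mef2c it was Rbbp4 (r = 0.9931). The 6 points share the split into the CON and 4H groups, so these values describe likeness in these libraries only.

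Partners, regulators and targets of the myogenic factors and markers of myoblasts were taken from 7 lists of 114 distinct genes in all. Of these, 75 were tested, and at the adjusted p 34 rose and 15 fell, beside 22.6% higher and 24.1% lower among all genes tested. The genes were chosen for their roles, and the counts of each list below are descriptions to be read against those shares and the 46.7% called in either direction. The partners come first. All 3 E protein genes fell, with a median log2 fold change of -0.28 against -0.01 for all genes tested. Tcf3, which encodes E12 and E47, went from 45.2 ± 1.79 to 37.1 ± 0.644 FPKM, a log2 difference of -0.28 (adjusted p = 0.000628 in limma). Tcf4 went from 14.0 ± 0.347 to 11.1 ± 0.616 FPKM, a log2 difference of -0.32 (adjusted p = 0.00198). Tcf12 went from 35.0 ± 1.15 to 32.0 ± 1.02 FPKM, a log2 difference of -0.13 (adjusted p = 0.0369), and its call was lost in 7 of 16 alternative settings, among them the omission of CON replicate 1 (adjusted p = 0.115), CON replicate 3 (0.0875), 4H replicate 2 (0.109) or 4H replicate 3 (0.0953).

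Among 17 genes for inhibitors of the myogenic regulatory factors, 13 were tested, 11 rose and 2 fell, beside 46.7% called among all genes tested. The median log2 fold change was 0.76. Id1 was at 28.0, 28.9 and 34.4 FPKM in the CON libraries and reached 71.7, 72.7 and 89.9 FPKM in the 4H libraries, with no overlap and 4H replicate 3 highest. Its log2 fold change was 1.34 (SE 0.10, adjusted p = 2.09e-05 in limma). Id2 rose from 19.0 ± 1.82 to 38.7 ± 1.77 FPKM, a log2 difference of 1.01 (adjusted p = 1.13e-05). Msc, which encodes the repressor musculin, was at 0.774, 0.676 and 0.418 FPKM in the CON libraries and reached 2.63, 2.41 and 1.93 FPKM in the 4H libraries, with no overlap. Its log2 fold change was 1.34 (SE 0.16, adjusted p = 0.000279 in limma). Snai2, a zinc finger repressor that binds E-boxes, went the other way, from 42.3 ± 1.82 to 18.4 ± 0.608 FPKM, a log2 difference of -1.17 (adjusted p = 6.45e-07 in limma).

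The summed level of Id1, Id2 and Id3 was 87.9, 81.9 and 91.9 FPKM in the CON libraries and 174, 172 and 193 FPKM in the 4H libraries. The summed level of the 3 E protein genes was 96.3, 94.0 and 92.4 FPKM in the CON libraries and 81.9, 79.8 and 78.8 FPKM in the 4H libraries. The sums were of like size in the unstretched libraries, and the ID sum was above the E protein sum in every stretched library. The ratio of ID to E protein genes went from 0.927 ± 0.0626 to 2.24 ± 0.181 (SD, n = 3 each). Over the same libraries the ratio of Myod1 to the E protein genes went from 0.0545 ± 0.00629 to 0.227 ± 0.0105.

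Regulators of MEF2 activity moved in both directions. Of 14 genes, 10 were tested, 2 rose and 4 fell, with a median log2 fold change of 0.06, beside 46.7% called among all genes tested. Hdac4, a class II histone deacetylase that represses MEF2, fell from 8.16 ± 0.494 to 4.90 ± 0.220 FPKM, a log2 difference of -0.68 (adjusted p = 0.000126 in limma). Sik1, a kinase that phosphorylates these deacetylases, rose from 2.36 ± 0.498 to 4.91 ± 0.739 FPKM, a log2 difference of 0.92 (adjusted p = 0.00129). The listed genes for catalytic subunits of calcineurin, a phosphatase that activates MEF2 signalling, both fell: Ppp3ca by 0.49 and Ppp3cb by 0.39 on the log2 scale (adjusted p = 0.000159 and 0.000318 in limma). Mef2b, the remaining gene of the family, was listed at 0 in all 6 libraries.

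The next list held 18 homeobox, EYA and related factors, some of which act upstream of the myogenic regulatory factors. Of these, 10 were tested, 1 rose, 2 fell and 7 did not pass, beside 46.7% called among all genes tested. The median log2 fold change was 0. Eya4 fell from 13.1 ± 0.0646 to 9.43 ± 0.144 FPKM and Nfix from 74.7 ± 3.32 to 59.3 ± 2.33 FPKM (log2 fold change -0.46 and -0.33, adjusted p = 0.000122 and 0.000493 in limma). Six4 rose from 4.57 ± 0.193 to 5.57 ± 0.1 FPKM, a log2 difference of 0.26 (adjusted p = 0.0144). Without 4H replicate 2 the count of called genes in this list was 5 instead of 3. Meox1, Meox2 and Barx2 were listed at 0 in all libraries.

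All 15 chromatin cofactors were tested, of which 4 rose, 2 fell and 9 did not pass, a share near the 46.7% called among all genes tested, with a median log2 fold change of 0.02. Kat2b, the acetyltransferase PCAF that acts on MYOD, rose by a log2 fold change of 0.44 (adjusted p = 0.00119 in limma). Carm1, an arginine methyltransferase and coactivator of MEF2, fell by 0.33 on the log2 scale (adjusted p = 0.000464 in limma). Setd7 and Hdac1 had log2 fold changes of 0.20 and 0.19 (adjusted p = 0.00766 and 0.0111 in limma). The value of Hdac1 is uncertain, since 29.3% of its 75-base stretches also occur elsewhere in the annotated transcripts.

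The genes that the myogenic factors switch on in differentiation were mostly low. Of 35 genes, 20 lay below the filter, none of them above 0.613 FPKM in any library, and Actc1, Myh8, Mymx and Tnni2 were listed at 0 throughout. Of the 15 tested, 10 rose, 1 fell and 4 did not pass, beside 46.7% called among all genes tested. The median log2 fold change was 0.56. Calls in this list numbered 8 after quantile normalization and 16 with no filter. Tnnt2, the cardiac-type troponin T that myoblasts also express, was at 34.7, 32.9 and 38.4 FPKM in the CON libraries and reached 88.5, 87.4 and 88.5 FPKM in the 4H libraries, without overlap (log2 fold change 1.31, adjusted p = 7.63e-07 in limma). Of the acetylcholine receptor subunits, Chrna1 rose from 20.9 ± 0.396 to 34.6 ± 1.48 FPKM (log2 fold change 0.71), while Chrnd fell from 18.5 ± 1.25 to 10.8 ± 0.761 FPKM (log2 fold change -0.74), with adjusted p = 6.31e-06 and 6.57e-05 in limma. Chrnb1 rose by a log2 fold change of 0.27 (adjusted p = 0.00531 in limma), and Chrng lay below the filter. Chrnb1 and Chrng were named after their values were seen. Cdh15, the adhesion molecule M-cadherin, rose from 7.46 ± 0.321 to 12.3 ± 1.19 FPKM, a log2 difference of 0.68 (adjusted p = 0.00021).

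Among 14 genes of the myoblast surface and structure, 11 were tested, 8 rose, 1 fell and 2 did not pass. The share called among all genes tested was 46.7%, and the median log2 fold change of the list was 0.43. Cdh15 and Des are in this list and in that of the differentiation genes, and are counted among the genes that rose in both. Itga7, the laminin-binding integrin subunit of muscle, rose from 55.9 to 102.2 FPKM, a log2 difference of 0.87 (adjusted p = 1.62e-06 in limma). Cxcr4, a chemokine receptor of migrating progenitors, had a log2 fold change of 1.09, and Megf10 one of 0.75 (adjusted p = 0.000904 and 1.58e-05 in limma). Cd34 fell from 192.6 to 120.6 FPKM, a log2 difference of -0.68 (adjusted p = 2.46e-05). Des, the muscle intermediate filament desmin, was at 70.4 to 72.5 FPKM in the CON libraries and 87.3 to 91.6 FPKM in the 4H libraries, so desmin was present in every library of the labelled myoblasts. Of the list genes checked, Msc, Hdac4, Nfix, Carm1, Setd7, Itga7, Cd34 and Des share exon positions with a gene on the opposite strand. Their values are uncertain to that extent. Chrnb1, Chrng and Id3, among others, were not checked.

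**Figure D4:**
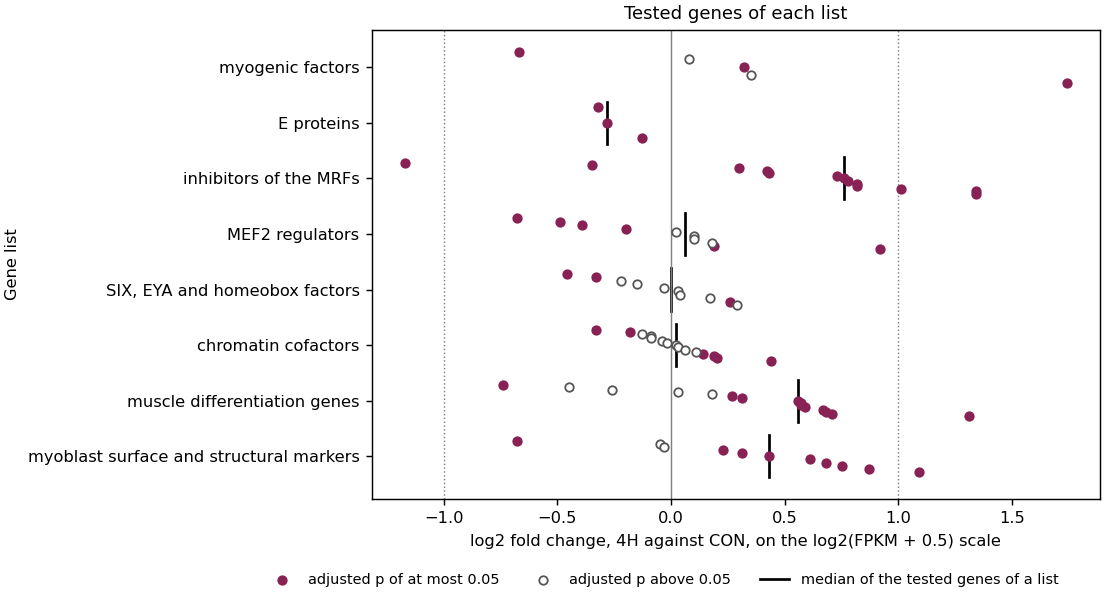
Log2 fold change of each tested gene of the 9 myogenic factors and the 7 lists, filled where the adjusted p was at most 0.05, with a vertical bar at the median of each of the 7 lists and dotted lines at the fold threshold. The bar lies at 0.76 for the inhibitors and at -0.28 for the E proteins, and the lists of MEF2 regulators, of homeobox and EYA factors, and of chromatin cofactors have medians between 0 and 0.06.

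Markers of 6 other cell types were read in the same libraries. Of 5 macrophage genes, Cd68 and Csf1r were tested and were higher in the 4H group. Csf1r, listed at 0 in CON replicates 1 and 2, passed the filter only through the 4H group. The summed level of the 5 was 6.73 to 8.51 FPKM in the CON group and 16.5 to 18.6 FPKM in the 4H group, most of it from Cd68, while Ptprc and Adgre1 were listed at 0 in all libraries. The summed levels of 5 fibroblast genes were 2.87 to 3.4 and 4.98 to 5.52 FPKM, of 5 adipocyte genes 10.6 to 12.2 and 13.1 to 13.9 FPKM, and of 5 osteoblast genes 14.8 to 16.4 and 19.6 to 21.2 FPKM, with Tcf21, Plin1 and Ibsp at 0 throughout. Of these 3 lists, 1 fibroblast and 1 osteoblast gene were tested and rose, and 2 adipocyte genes were tested, of which 1 rose and 1 fell. Endothelial and epithelial genes summed to at most 0.387 and 0.616 FPKM in any library, with Emcn and Epcam at 0. All 6 sums were higher in the 4H group, and their part in the results above was not tested.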

How the data were processed

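RNA-seq of 3 CON and 3 4H libraries of C2C12 cells was analysed. The authors deposited 1 table of FPKM values, with 1 column per library. The processing notes of the submitters name the build mm10, while for the aligner, the counting tool and the annotation no name is given in the sources used here. Per the labels, libraries were poly(A) selected and strand-specific. Library groups and replicate numbers were taken from the labels. By their descriptions, the libraries with the titles 4H1, 4H3 and 4H4 are 4H replicates 1, 2 and 3, and no title 4H2 was among the samples used here. FPKM is not a count, so limma 3.58.1 in R 4.3.3 (trended, two-sided, no replicate block) was run on log2(FPKM + 0.5) for genes averaging 0.5 FPKM or more, with Benjamini-Hochberg adjustment over all 11593 genes tested. The script was tested on simulated data. Means carry the SD. Single ratios were compared with exact permutation tests (SciPy 1.17.1). Depth in reads is unknown, so no counting intervals are given.

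The members and lists were chosen with earlier results of these data known. Named genes were all members, Des, the called genes of each list averaging 1 FPKM or more with the 4 largest absolute log2 fold changes, and the 2 genes most like each tested member, of which 1 is not reported here. Gene positions came from GENCODE M21 on GRCm38, the assembly of mm10, and promoters from RefSeq GRCm38.p6. In 16 alternatives the pseudocount, filter, scaling, weights, trend or block was changed or 1 library was left out. Protein sequences were not used here.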

Additional observations from a re-analysis of the deposited data

How the results depend on the processing

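The 16 alternatives were read for 36 named genes: the members, the list genes with the largest changes, and Des. Genes most like a member, and others named beside these, such as Chrnb1, were not included. This gave 515 comparisons, since Myog, Myf6 and Pax3 had a value in 1 of the alternatives, Pax7 in 2 and Mef2c in 14. In 506 the call was not changed, but Myf6, Pax3 and Pax7, among these, had no test under the main filter and so no call to keep. The 7 calls lost were all of Tcf12, the 2 gained were Mef2d after rescaling to TPM and Myog with no filter, and no direction was reversed in the comparisons run. Myod1 had log2 fold changes of 1.65 to 1.83, Myf5 of -0.75 to -0.59 and Mef2a of 0.24 to 0.37 over all 16. The number of members called at the adjusted p was 3 in every setting that left out a library and 3 to 4 in the others. Genes past both thresholds numbered 450, with 449 to 467 when 1 library was left out, 347 and 591 at pseudocounts of 1 and 0.1, and 703 after rescaling to TPM, and the cause was not tested. With the replicate number as a block, 452 genes passed both thresholds and 4964 passed the adjusted p. Deviations of libraries that share a number correlated at 0.025, -0.0929 and -0.126, so the numbers were not taken to pair the samples. Depth in reads is unknown, so no precision can be given for the values of Myog, Myf6, Pax3 and Pax7 below the filter.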
